A study of Mus musculus with 2 samples.

Results

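The myeloid C-type lectin receptors examined here were 10 genes, found by symbol among the 55357 genes listed for mouse heart: Clec7a, Clec4n, Clec4e, Clec4d, Clec4a1, Clec4a2, Clec4a3, Clec10a, Clec12a and Clec9a. All 10 symbols were found, each with 1 gene identifier, and all 10 had UMIs in both libraries. The hearts came from C57BL/6 mice and were dissociated into single cells, and cells of 3 to 5 hearts were combined for each of the 2 libraries. The TAC library was made from male mice after 6 weeks of transverse aortic constriction, a narrowing of the aorta that loads the left ventricle with pressure, which was started at 8 weeks of age. The Sham library was made, by its label, from mice that had the same operation without the constriction, while the design text of the series calls these mice uninjured, and their age is not given in the sources used here. By the methods of the study, all of its mice were male. Both groups share the strain, and neither carries a modified gene. With 1 library per condition, a difference between Sham and TAC cannot be told apart from a difference between these libraries, and no test was made.

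C-type lectin receptors are surface proteins with which macrophages and dendritic cells bind sugars and glycolipids of microbes and molecules released by dying cells. Dectin-1 (encoded by Clec7a) carries its own activating tail, whereas Dectin-2 (Clec4n), Mincle (Clec4e) and MCL (Clec4d) pair with the Fc receptor gamma chain (Fcer1g). Both routes run through the kinase SYK to the adapter CARD9, which forms a complex with BCL10 and MALT1 upstream of NF-kB. DCIR1 (Clec4a2) and MICL (Clec12a) carry inhibitory motifs that recruit phosphatases. DNGR-1 (Clec9a) binds actin filaments of dead cells and is a defining receptor of type 1 dendritic cells.

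Of the 10 genes, 9 lie on mouse chromosome 6 (GRCm38 coordinates of GENCODE M21). Clec4a1 (chr6:122921848-122934619), Clec4a3 (chr6:122952515-122969875), Clec4a2 (chr6:123106428-123143999), Clec4n (chr6:123229843-123247021), Clec4d (chr6:123262111-123275265) and Clec4e (chr6:123281789-123289870) sit within 368 kb. Clec12a (chr6:129342691-129365303), Clec9a (chr6:129408862-129424763) and Clec7a (chr6:129461591-129472779) sit within 130 kb further along. Clec10a is on chromosome 11 (chr11:70156197-70170834). GENCODE M21 lists Clec7a as a polymorphic pseudogene and the other 9 as protein-coding. Clec9a shares bases with 2 genes on its own strand: the final 474 bases of Clec1b, which encodes the platelet receptor CLEC-2, and Gm43914, which lies inside it. Clec1a, on the other strand, ends 8 bases from the end of Clec9a. The start of Clec9a (position 129408862) falls inside an exon of Clec1b (chr6:129405107-129409335), so reads from this stretch cannot be assigned to either gene alone.

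Upstream sequences are shown for the receptor with the highest level in macrophages (Clec4a1) and for the receptors with the largest differences between libraries in either direction among those with at least 100 UMIs in macrophages (Clec4d and Clec7a). RefSeq windows (GRCm38.p6) were found for 8 of the 10 genes, those of Clec4n and Clec10a being the missing ones. Each run below is the 250 bases before the annotated start, 5′ to 3′ on the strand of the gene. Capitals mark AGGAAG or its reverse complement CTTCCT, letters that contain the GGAA core bound by ETS factors such as PU.1, a factor of myeloid cells.
Clec4a1, chr6:122921598-122921847, + strand: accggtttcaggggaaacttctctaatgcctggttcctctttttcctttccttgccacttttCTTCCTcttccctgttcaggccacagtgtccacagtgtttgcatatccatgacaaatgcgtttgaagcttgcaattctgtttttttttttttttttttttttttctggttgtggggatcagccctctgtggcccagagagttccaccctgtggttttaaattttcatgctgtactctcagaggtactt
Clec4d, chr6:123261857-123262106, + strand: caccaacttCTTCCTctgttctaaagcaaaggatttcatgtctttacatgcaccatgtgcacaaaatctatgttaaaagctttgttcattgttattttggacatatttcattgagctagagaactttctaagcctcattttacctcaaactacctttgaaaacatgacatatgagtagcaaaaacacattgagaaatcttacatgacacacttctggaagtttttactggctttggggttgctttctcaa
Clec7a, chr6:129472780-129473029, − strand: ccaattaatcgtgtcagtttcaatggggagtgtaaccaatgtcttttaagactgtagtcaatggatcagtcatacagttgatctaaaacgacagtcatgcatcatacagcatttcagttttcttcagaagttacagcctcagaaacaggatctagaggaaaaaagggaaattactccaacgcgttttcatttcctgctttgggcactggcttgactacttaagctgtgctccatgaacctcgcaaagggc
Searched on both strands, AGGAAG was in the windows of 4 of the 8 receptors (Clec12a, Clec4a1, Clec4a3 and Clec4d) and in 29.5% of 32851 windows of the same length. The longer GAGGAAGT, which contains it, was in 0 of the 8 and in 2.44% of all windows. A receptor was counted when any of its windows held the letters, and the 8 receptors had 10 windows. The percentages of all windows are counted per window, so the measures differ. A match describes letters only.

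After filtering, 9475 Sham and 9452 TAC cells were kept, and the 10 receptors had 2034 and 2151 UMIs in them. Cell types were named from marker genes without use of the receptors. Macrophages made up 1422 Sham and 1342 TAC cells with medians of 1319 and 1660.5 UMIs per cell, and all 9 of their listed markers were detected in both libraries. A cluster with 7 markers of type 1 dendritic cells, among them Xcr1, Batf3, Itgae and Wdfy4, held 27 Sham and 6 TAC cells. Detection of the macrophage markers means any UMI in the summed macrophages, which were named from markers of that list. Their summed level was 6264 UMIs per 1000000 in Sham and 6164 in TAC. The 8 listed cardiomyocyte markers were all detected in macrophages as well, at a summed level of 3640 in Sham and 2172 in TAC. So were all listed markers of fibroblasts (232 and 292), endothelial cells (158 and 144), lymphatic endothelial cells (164 and 274) and pericytes (87.4 and 64.2). The listed B cell markers were at 561 and 807. The part of the RNA of other cell types in the values below was not tested. Levels are UMIs of a gene per 1000000 UMIs of the same cells, and ranges in brackets are 95% intervals that cover counting error only.

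The receptors were concentrated in macrophages. Macrophages held 85.1% of the receptors' UMIs in Sham (83.4–86.6) and 83.3% in TAC (81.7–84.9), although they contributed 8.60% and 9.77% of all UMIs. The share held by macrophages ranged from 70.0% (Clec4e in Sham, 7 of 10 UMIs) to 96.3% (Clec4a3 in Sham, 259 of 269 UMIs) for 9 of the receptors. Clec9a was the exception, with 4.19% of its UMIs in macrophages in Sham and 0.752% in TAC. The summed level of the 10 genes was 775 in Sham macrophages (739–813) and 689 in TAC macrophages (657–721). In fibroblasts it was 5.15 in Sham and 6.36 in TAC, and in cardiomyocytes 2.89 and 2.06. The heat map of levels by cell type shows this, and the isolated values of T cells, B cells and smooth muscle cells in it rest on 1 or 2 UMIs each.

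**Figure D1:**
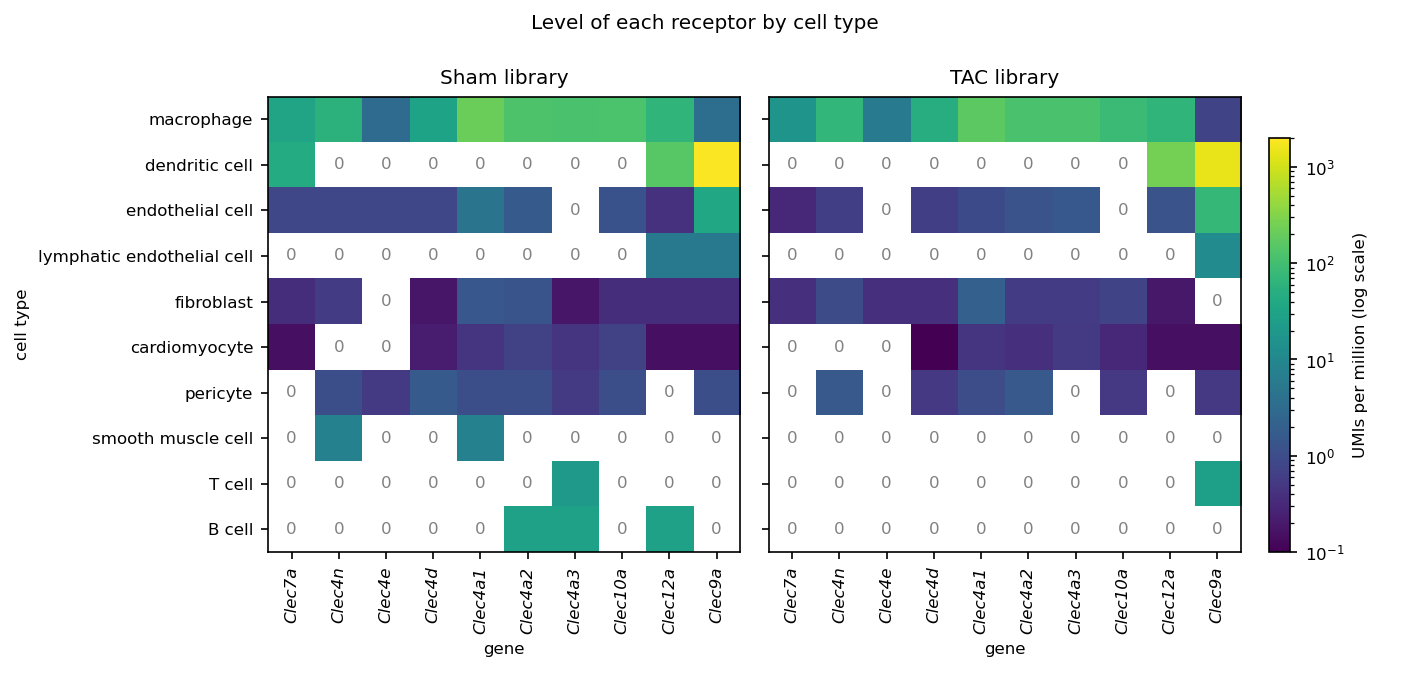
Level of each receptor (columns) in each cell type (rows) in the Sham library (left) and the TAC library (right), as UMIs per 1000000 on a logarithmic colour scale; 0 marks types in which no UMI was seen. The macrophage row is filled for all 10 genes, and Clec9a is highest in dendritic cells and next highest in endothelial cells.

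Single receptors were seen in a minority of macrophages. Depths were made equal by a random draw of 1000 UMIs from each cell, without the 402 Sham and 222 TAC macrophages of lower depth. Then 49.6% of Sham macrophages (46.5–52.7) and 46.7% of TAC macrophages (43.7–49.7) had a UMI of any of the 10 genes. The same share was 0.625% and 0.590% in fibroblasts and 0.283% and 0.168% in cardiomyocytes, cells that should lack these receptors. Clec4a1 was in the most macrophages, 18.6% in Sham and 16.0% in TAC. Clec4e was in the fewest of the 9 macrophage receptors, 2 of 1020 Sham cells and 6 of 1120 TAC cells. Without thinning, a UMI of Clec4a1 was found in 25.7% of Sham and 23.2% of TAC macrophages.

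To compare the receptors with each other, levels in macrophages were divided by gene length, the span from start to end in the annotation. The libraries were made with a 3-prime kit, and whether intronic reads were counted is not given. Whether levels scale with this span is therefore unknown and was not tested, and the order per kb holds only under this division. Clec4a1 had the highest level per kb, 17.0 in Sham (15.5–18.6) and 12.8 in TAC (11.7–14.1). Clec10a followed in Sham at 8.36 per kb (7.40–9.41) and Clec4a3 at 6.69 (5.90–7.55), and in TAC the order of these 2 was turned, with Clec4a3 at 6.71 (5.97–7.51) and Clec10a at 5.77 (5.04–6.59). The intervals of Clec10a and Clec4a3 overlapped in each library. Clec4n (3.44 and 4.03 per kb), Clec4a2 (3.36 and 3.13), Clec7a (2.92 and 1.51), Clec12a (2.83 and 2.89) and Clec4d (2.35 and 3.65) formed a middle group with neighbouring intervals that overlapped in Sham. The place of Clec4a2 depended on this scaling: its span is 37.6 kb, and without division by length it had the second highest level in both libraries, 126 and 118. Clec4e was at 0.388 and 0.713 per kb, below each of these genes in both libraries, and Clec9a at 0.225 and 0.0483.

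The activating receptors differed in opposite directions between the libraries in macrophages. Clec7a, the receptor for beta-glucans, had 73 UMIs in Sham and 44 in TAC, levels of 32.7 and 16.9, and a TAC to Sham ratio of 0.517 (0.347–0.761). Clec4d, the partner of Mincle, had 69 and 125 UMIs, levels of 30.9 and 48.0, and a ratio of 1.55 (1.15–2.12). These intervals did not include 1 and lay on opposite sides of it. Clec4n, the Dectin-2 gene, had levels of 59.2 and 69.2 with a ratio of 1.17 (0.929–1.47), an interval that included 1. Clec4e, the Mincle gene, had only 7 and 15 UMIs, levels of 3.14 and 5.76, and a ratio of 1.84 (0.705–5.33).

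Set against all genes of these macrophages, no receptor with at least 20 UMIs was past 2-fold. Of 12381 genes with at least 20 UMIs in macrophages, 5.41% were past 2-fold higher in TAC and 3.35% past 2-fold lower, and the median log2 ratio was 0.0025. Of the 9 receptors with that many UMIs, 0 were past 2-fold in either direction. The ratio of Clec7a was lower than that of all but 3.92% of genes, and the ratio of Clec4d was higher than that of 88.7% of genes.

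**Figure D2:**
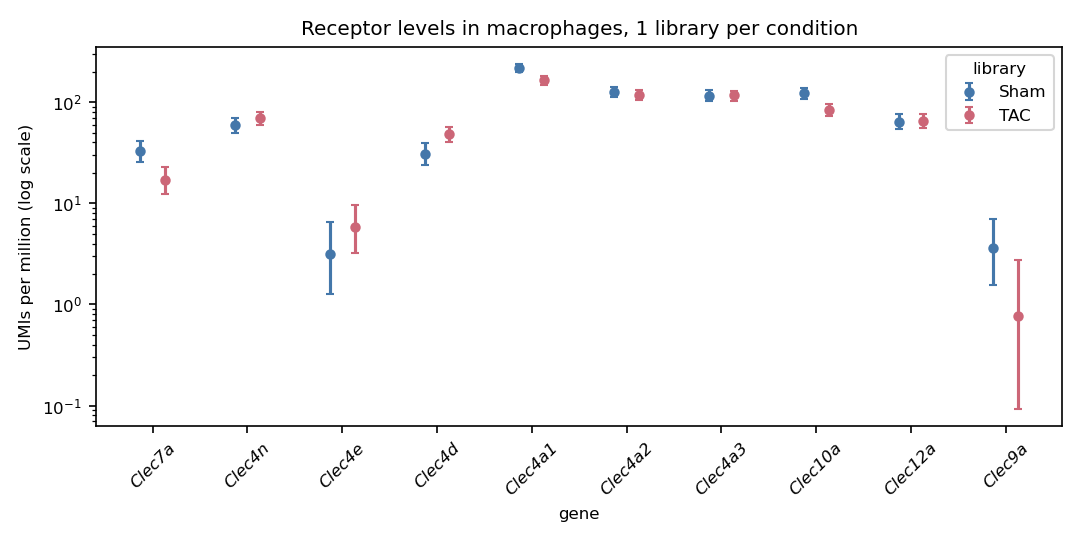
Level of each receptor in macrophages (UMIs per 1000000, logarithmic axis) in Sham (blue) and TAC (red), 1 library each, with 95% counting intervals. The interval of TAC lies below that of Sham for Clec7a, Clec4a1 and Clec10a and above it for Clec4d, and the pairs of Clec4a2, Clec4a3, Clec4n and Clec12a overlap widely.

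Taken with their neighbours Clec4b1 and Clec4b2, the genes of the DCIR group on chromosome 6 had a lower summed level in TAC. Among those of these genes with at least 20 UMIs, ratios ranged from near 1 to 0.548, the value of Clec4b1. Within the DCIR group itself the lowest ratio was 0.756, that of Clec4a1. Clec4a1 (DCIR4) had 484 UMIs in Sham and 427 in TAC, levels of 217 and 164, and a ratio of 0.756 (0.662–0.863). Clec4a2 (DCIR1) had levels of 126 and 118 with a ratio of 0.930 (0.789–1.10). Clec4a3 (DCIR3) was at 116 in each library, with an interval of 0.847 to 1.19 for the ratio. Clec4b1, a neighbour of the group that is outside the 10, was at 49.8 and 27.3 with a ratio of 0.548 (0.401–0.745), and Clec4a4, also outside the 10, had 25 and 24 UMIs and a ratio of 0.823, with an interval that included 1. The group has closely related sequences, so the split of reads among its members is uncertain. Summed over Clec4a1, Clec4a2, Clec4a3, Clec4a4, Clec4b1 and Clec4b2, the level was 521 in Sham and 436 in TAC, a ratio of 0.837 (0.771–0.909). A sum without Clec4b1 and Clec4b2 was not computed.

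Clec10a, which encodes the galactose-binding lectin MGL1, differed in the opposite direction to its neighbour Mgl2. Clec10a had 273 UMIs in Sham macrophages and 220 in TAC, levels of 122 and 84.5, and a ratio of 0.691 (0.576–0.828). Mgl2 had 205 and 404 UMIs, levels of 91.9 and 155, and a ratio of 1.69 (1.42–2.01). The sum of both genes was 214 in Sham and 240 in TAC, with a ratio of 1.12 (0.992–1.26) whose interval included 1. The genes are close paralogs, and how the counting split any shared reads between them was not tested. Clec12a, the inhibitory receptor for uric acid crystals, was at 64.1 and 65.3 with a ratio of 1.02 (0.811–1.28).

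Summed over the 10 receptors, the ratio of TAC to Sham macrophages was 0.888 (0.831–0.949). By value 5 of the 9 receptors with at least 20 UMIs were above 1 and 4 below it, with a median log2 ratio of 0.0041 beside 0.0025 over all genes.

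The signalling genes downstream of these receptors were near equal between the libraries. All 20 listed genes had at least 20 UMIs in macrophages and 0 were past 2-fold, with 9 above 1, 11 below it and a median log2 ratio of -0.015. Card9 was at 37.6 in Sham and 35.7 in TAC, a ratio of 0.949 (0.699–1.29). Its partner Bcl10 had the lowest ratio of the list, 0.590 (0.467–0.743), from 186 and 128 UMIs, and Malt1 was at 1.19 (0.950–1.48). Fcer1g, the gamma chain that carries Dectin-2, Mincle and MCL, was at 158 and 191 with a ratio of 1.21 (1.05–1.39). Syk was at 504 and 447 with a ratio of 0.887 (0.816–0.964), and Plcg2, a phospholipase downstream of SYK, had the highest ratio of the list at 1.33 (1.17–1.52).

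Other C-type lectin receptors of a list of 32 were measured in the same macrophages. Of these, 17 had at least 20 UMIs, 7 had 0 UMIs in both libraries, and the level of Mrc1, the mannose receptor, was the highest at 2327 and 2527. Clec2d, a ligand of a natural killer receptor, was at 171 and 280 with a ratio of 1.64 (1.45–1.86). Cd72, an inhibitory receptor, was at 41.2 and 59.6 with a ratio of 1.44 (1.11–1.89). Mrc1 is also a listed marker of macrophages and Cd72 one of macrophages with MHC class II. Both served in the naming of clusters, so the high level of Mrc1 follows in part from the naming. The gene past 2-fold lower was Clec1a, with 14 and 8 UMIs and an interval that included 1, and 0 were past 2-fold higher. The median log2 ratio of the 17 was -0.042.

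**Figure D3:**
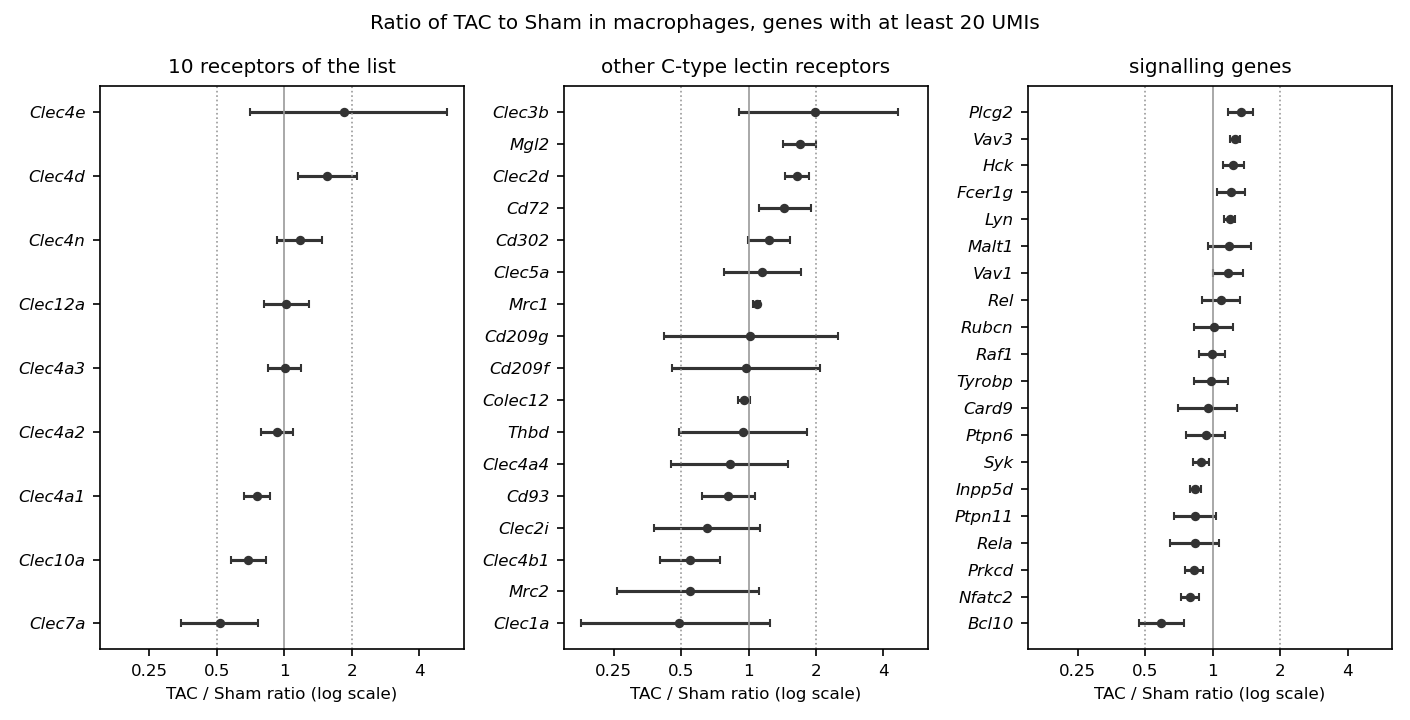
Ratio of TAC to Sham in macrophages (logarithmic axis) for the receptors, other C-type lectin receptors and signalling genes with at least 20 UMIs; bars are 95% counting intervals, the solid line marks 1 and dotted lines mark 2-fold. Clec7a lies at 0.517 and Clec4d at 1.55, and all signalling genes lie between the dotted lines.

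Clusters of myeloid cells, found in both libraries together with the receptors left out, differed in which receptor they carried. They were made with genes scaled within each library. Of the 10 clusters, 1 could be named macrophages with MHC class II (317 Sham and 289 TAC cells, led by H2-Eb1, H2-Aa and H2-Ab1), 1 was the dendritic cluster, and 8 stayed unnamed and are called by number and leading genes. Cluster 5 was led by cardiomyocyte genes such as Dmd and Ryr2 and cluster 9 by endothelial genes such as Adgrl4 and Flt1. Cluster 6 (19 Sham and 30 TAC cells) stayed unnamed by the naming rule although it carried 5 listed markers of macrophages with MHC class II (Ciita, H2-Ab1, H2-Aa, H2-Eb1 and Cd74). Its H2-Aa level was 291 in Sham and 425 in TAC, beside 340 and 362 in the named MHC class II cluster. It is counted below among the other macrophages. So are cluster 5 (321 Sham and 266 TAC cells) and cluster 9 (25 and 18), with their cardiomyocyte and endothelial RNA. Ratios to the other macrophages without clusters 5 and 9 were not computed.

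Clec7a was highest in the macrophages with MHC class II. Its level there was 65.6 in Sham (43.2–95.4) and 31.1 in TAC (17.0–52.1), beside 25.3 (18.5–33.7) and 13.9 (9.41–19.9) in the other macrophages. The ratio of MHC class II to other macrophages was 2.59 in Sham (1.55–4.26) and 2.23 in TAC (1.09–4.33). Of 9938 genes in Sham, 4.32% were past 2-fold higher in the MHC class II cells and 7.52% past 2-fold lower, and of 10473 genes in TAC these were 4.99% and 7.96%. The lower TAC value of Clec7a was seen within the MHC class II macrophages, with a ratio of 0.473 (0.229–0.935), and outside them, at 0.551 (0.336–0.893). Of 6798 genes with at least 20 UMIs in the MHC class II macrophages, 5.49% were past 2-fold higher in TAC and 5% past 2-fold lower, and of 11744 genes in the other macrophages these were 5.13% and 3.68%. Under 5 alternative clusterings the TAC to Sham ratio of Clec7a in the MHC class II cells lay between 0.278 and 0.602, and 3 of the 5 intervals included 1. Cluster 3, led by Nr3c2, followed at 50.4 in Sham and 29.6 in TAC, with intervals that overlapped those of the MHC class II cells. With each library clustered alone the ratio of MHC class II to other macrophages was 1.55 in Sham (0.707–3.03), and with genes scaled over both libraries it was 1.24 in TAC (0.246–3.89), so that both intervals included 1. By value Clec7a was lower in TAC in 8 of the 9 clusters of macrophages, with cluster 4 (2 and 4 UMIs) as the exception.

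Clec10a and Clec4d had lower levels in the cluster named macrophages with MHC class II than in the other macrophages. Clec10a was at 31.6 in Sham and 37.7 in TAC there, beside 143 and 94.3 in the other macrophages, ratios of 0.221 (0.116–0.385) and 0.400 (0.228–0.656). Clec4d was at 9.72 and 19.96, beside 35.7 and 53.9, ratios of 0.272 (0.0720–0.731) and 0.370 (0.165–0.728). The TAC ratios depended on the clustering: at resolution 2 that of Clec10a was 1.03, and at resolution 0.5 that of Clec4d was 1.03. The small cluster 6, which also carried MHC class II, differed from the named cluster in Clec10a, at 255 in Sham (102–525) and 170 in TAC (81.5–313) from 7 and 10 UMIs. With cluster 6 counted among the MHC class II cells, the ratios of Clec10a were 0.323 (0.194–0.509) and 0.574 (0.369–0.862). In Sham, 7 alternatives gave ratios from 0.224 to 0.409 for Clec10a and from 0 to 0.602 for Clec4d. Between libraries, Clec10a was lower in TAC in the other macrophages, with a ratio of 0.660 (0.547–0.796), while in the MHC class II cells, with 13 and 17 UMIs, it was 1.19 (0.546–2.67) and lay between 0.621 and 1.86 under 5 alternative clusterings. The difference between these 2 ratios was not tested.

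Clec4n had 15 UMIs in Sham and 33 in TAC in the macrophages with MHC class II, levels of 36.4 and 73.2, and a ratio of 2.01 (1.06–3.98), past 2-fold higher, as were 5.49% of genes in these cells. In the other macrophages it was at 64.3 and 68.3 with a ratio of 1.06 (0.828–1.37). The ratio in the MHC class II cells depended on the clustering: under 5 alternatives it lay between 0.574 and 1.57, and each of these intervals included 1. The difference between the ratios of the 2 groups of cells was not tested.

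Clec4d was highest in cluster 2, a group of 76 Sham and 83 TAC cells led by Txnrd1, Lgals3 and Nfkbiz. It was at 140 in Sham and 268 in TAC there, beside 24.6 and 34.3 in the other macrophages, which is 5.70 times (3.09–10.0) and 7.83 times (5.25–11.5) as high. Clec4n was also higher in this cluster, at 231 and 124 beside 49.3 and 65.7, ratios of 4.69 (2.98–7.18) and 1.89 (1.11–3.05). Clec4a2 was lower there by value, with ratios of 0.509 (0.218–1.02) and 0.486 (0.220–0.935). These values describe a cluster picked for them after they had been seen.

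The few Clec4e UMIs lay largely in small clusters. Cluster 6, led by Fgr and Ccr2, the receptor that draws monocytes into tissue, held 1 of the 7 Clec4e UMIs of Sham macrophages and 8 of the 15 of TAC macrophages. Cluster 2 held 3 of the 7 and 3 of the 15. Of the listed dendritic cell markers, Cd209a and Flt3 are given here for cluster 6, and the others are not. This cluster held all Cd209a UMIs of the 10 myeloid clusters, 7 in Sham and 7 in TAC. Flt3 was at 146 and 34.0 there, from 4 and 2 of the 36 and 5 Flt3 UMIs of all macrophages. In the type 1 dendritic cells Flt3 was at 764 and 835. The subtype with the most markers in cluster 6 was macrophages with MHC class II, with 5. The Clec4e level of cluster 6 was 36.4 in Sham (0.921–203) and 136 in TAC (58.7–268). In the other macrophages it was near equal between the libraries, at 2.72 in Sham and 2.75 in TAC. Clec12a was at 182 and 204 in the same cluster, from 5 and 12 UMIs, beside 62.6 and 62.1 in the other macrophages, ratios of 2.91 (0.929–6.95) and 3.29 (1.66–5.90). The Sham interval included 1. Clec4a3 was at 291 and 306 there, from 8 and 18 UMIs, beside 114 and 112, ratios of 2.56 (1.09–5.11) and 2.73 (1.60–4.40). This cluster, too, was picked after its values had been seen.

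**Figure D4:**
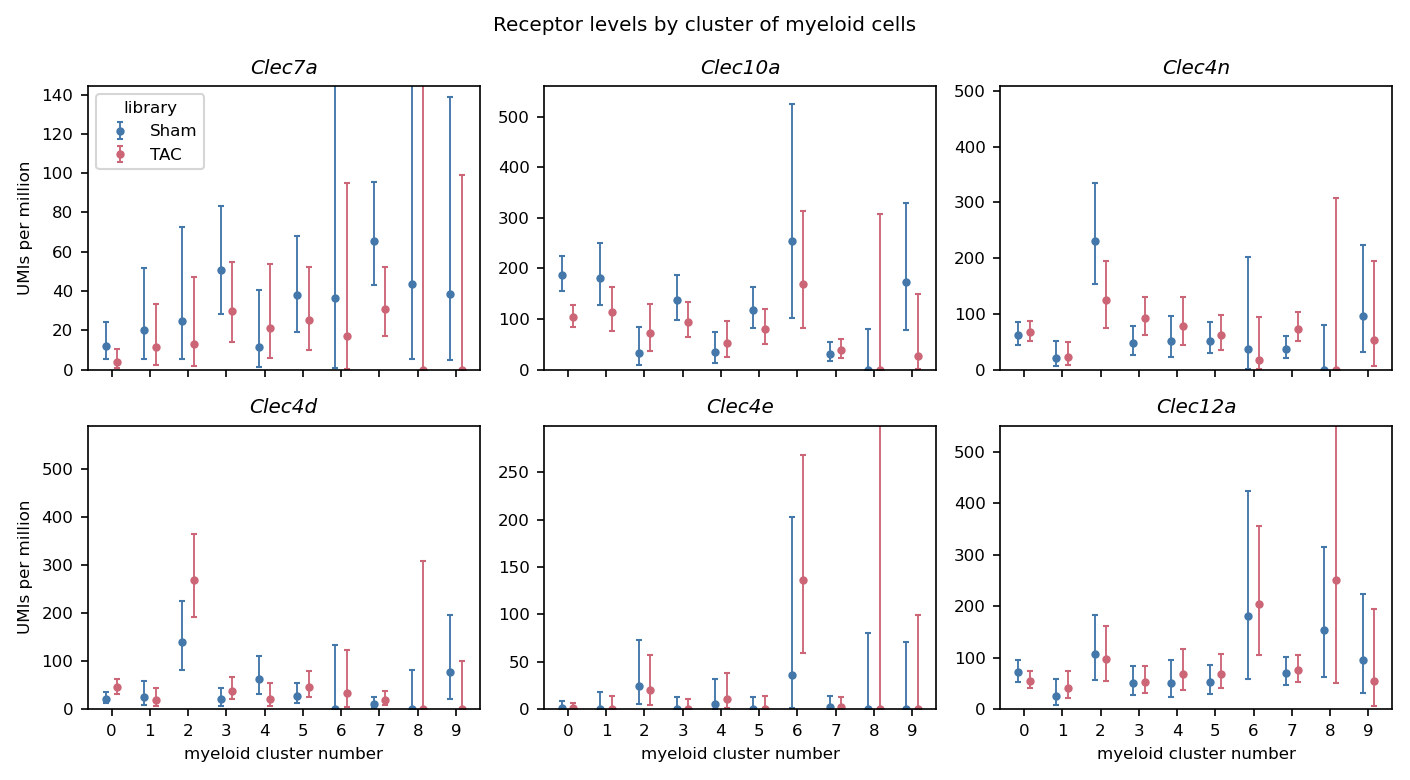
Level of 6 receptors (UMIs per 1000000) in the 10 clusters of myeloid cells in Sham (blue) and TAC (red) with 95% counting intervals; bars that pass the top of a panel are cut there. Cluster 7 is the macrophages with MHC class II, where Clec7a is highest, cluster 2 is the one with the highest Clec4d, cluster 6 the one with the highest Clec4e, and cluster 8 the dendritic cells.

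Clec9a was the receptor of the type 1 dendritic cells. In the 27 Sham cells it had 88 UMIs, a level of 1921 (1541–2367), with at most 16 UMIs in 1 cell, and in the 6 TAC cells 17 UMIs, a level of 1420 (827–2274). Under the alternatives of the myeloid clustering the level lay between 1346 and 1921 in Sham and between 622 and 1420 in TAC, the lowest being those with cell cycle genes kept. After thinning, 19 of 22 Sham and 4 of 6 TAC dendritic cells had a Clec9a UMI. Clec12a was also present, with 7 and 3 UMIs and levels of 153 (61.4–315) and 251 (51.7–732). Clec7a had 2 UMIs in Sham and 0 in TAC, where a count of 0 allows a level of up to 251. The other 7 receptors had 0 UMIs in both libraries, which allows up to 65.5 in Sham and 251 in TAC. In Sham, the limit is below the level of Clec4a1, Clec4a2, Clec4a3 and Clec10a in macrophages. These zeros depended on the clustering: Clec4a2 reached 101 in Sham (37.2–221) with each library clustered alone and 119 in TAC (14.4–430) with genes scaled over both libraries. Over all macrophages, Clec9a was at 3.59 in Sham and 0.768 in TAC. Flt3, a receptor of dendritic cells, was at 16.1 and 1.92 over all macrophages. The 8 Sham and 2 TAC macrophages with a Clec9a UMI held 0 Flt3 UMIs.

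Clec9a was also found in endothelial cells, and at a higher level in TAC. The 1914 Sham endothelial cells held 88 Clec9a UMIs, a level of 36.0 (28.9–44.4), and the 2253 TAC cells held 239, a level of 73.9 (64.8–83.9). The ratio was 2.05 (1.60–2.65), and 6.22% of 13085 genes with at least 20 UMIs in endothelial cells were past 2-fold higher in TAC. Endothelial cells held 46.1% of all Clec9a UMIs in Sham and 89.8% in TAC, and dendritic cells, which numbered 27 and 6, held 46.1% and 6.39%. Most of these cells had 1 UMI: 58 of 70 Sham cells and 165 of 198 TAC cells. After thinning, 3.19% of Sham (2.23–4.41) and 7.07% of TAC endothelial cells (5.84–8.48) had a Clec9a UMI, beside 0.0481% of Sham fibroblasts and 0 of 2034 TAC fibroblasts, which allows up to 0.147%. Before thinning, the medians were 1107 and 1264 UMIs per endothelial cell and 2155 and 2268 per fibroblast.

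The endothelial cells with Clec9a carried endothelial genes and held no UMI of Flt3 or Xcr1, defining genes of dendritic cells, in any of the 70 Sham and 198 TAC cells. These cells came from clusters named endothelial by a marker list that includes Pecam1. Flt3, Xcr1 and Zbtb46 are on the list that named dendritic cells. The values below therefore follow in part from the naming. All endothelial cells together held 1 Flt3 UMI in Sham and 0 in TAC, and 0 and 1 of Xcr1. Of 11 listed dendritic cell markers 8 were at 0 in Sham and 5 in TAC. Zbtb46 had 47 and 169 UMIs and the other markers detected between 1 and 4 each. Zbtb46 is a factor of dendritic and endothelial cells, and it was present in endothelial cells without Clec9a as well (911 and 1559 UMIs). Pecam1, an endothelial adhesion molecule, was at 1341 in Sham and 1207 in TAC in the Clec9a cells, beside 0 and 167 in the dendritic cells. Ptprc, the common leukocyte antigen, was at 42.1 and 18.1 beside 1834 and 1337 in the dendritic cells. In endothelial cells without Clec9a it was lower by value, at 13.9 in Sham and 9.99 in TAC. The source of the Ptprc RNA in the Clec9a cells was not tested.

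Of the neighbours of Clec9a on chromosome 6, Clec1b was higher in TAC endothelial cells, as Clec9a was, and Clec1a was lower. Clec1b, whose final 474 bases Clec9a overlaps, had 16 UMIs in Sham and 44 in TAC endothelial cells, levels of 6.55 and 13.6, and a ratio of 2.08 (1.15–3.95). Clec1a, on the opposite strand, was at 418 and 335 with a ratio of 0.802 (0.736–0.875). The part of the overlap in the Clec9a values was not tested. The other 9 receptors had between 0 and 11 UMIs each in endothelial cells of either library.

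Within endothelial cells, Clec9a was not limited to 1 cluster. In the main cluster led by Ccdc85a and Mcf2l it was at 34.7 in Sham (26.9–44.1), and in TAC at 88.8 (74.6–105) in the cluster with the same leading genes and at 51.5 (37.4–69.2) in a second cluster led by Lhx6. In the cluster led by Tmem108 and Nrg1, in which Npr3 was at 1670 and 1855, it was at 41.2 (22.5–69.2) and 71.0 (52.2–94.4). In the cluster led by Mannr, with Gja5, a gap junction gene of arteries, at 292 and 376, it had 0 UMIs in 53 Sham cells, which allows up to 41.7, and was at 60.6 (29.1–111) in 115 TAC cells. A Sham cluster of 40 cells led by Fabp4, at 68.1 (27.4–140), had no TAC counterpart. In lymphatic endothelial cells it had 1 and 3 UMIs, levels of 5.47 and 11.7. By value TAC was above Sham in each of these matched clusters. The interval of the main Sham cluster did not overlap that of the TAC cluster with the same leading genes, but it did overlap that of the cluster led by Lhx6, and the intervals of the other matched clusters overlapped.

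**Figure D5:**
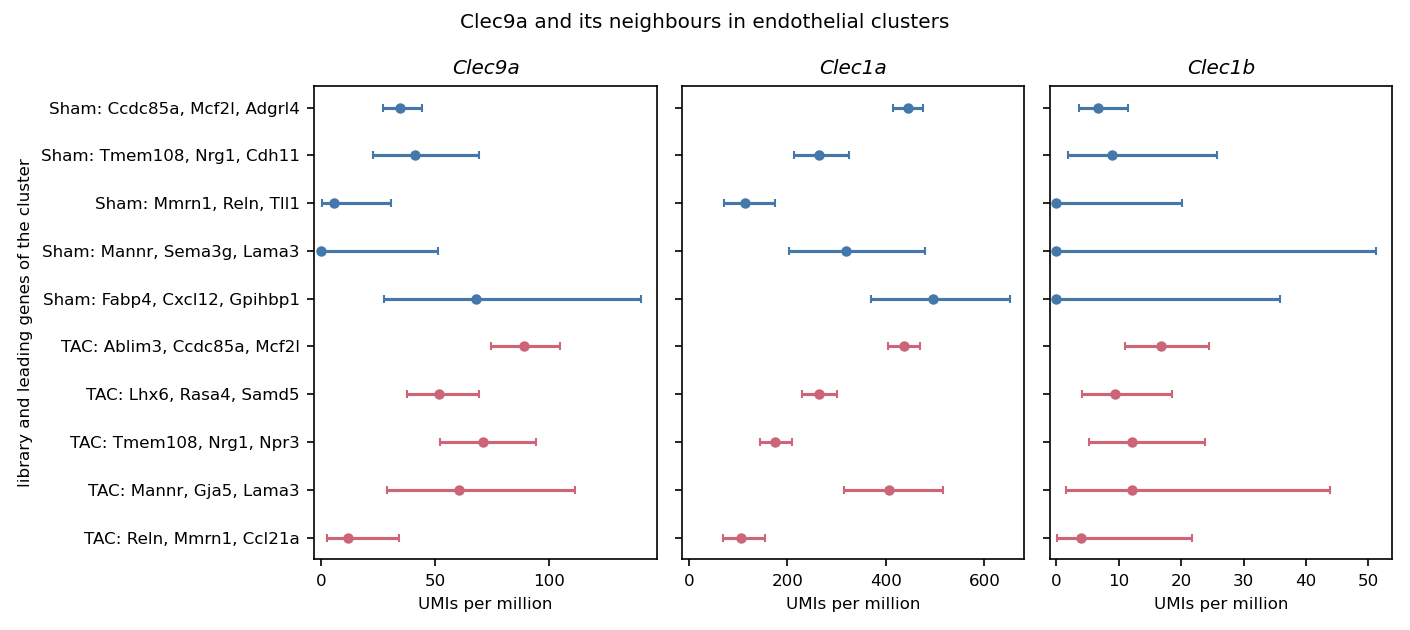
Levels of Clec9a and its neighbours Clec1a and Clec1b (UMIs per 1000000) in endothelial clusters of Sham (blue) and TAC (red), each labelled by its 3 leading genes, with 95% counting intervals. Clec9a in the cluster led by Ablim3 and Ccdc85a in TAC (88.8) lies above that in the Sham cluster led by Ccdc85a (34.7), while Clec1a is at 436 and 445 in them.

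The genes most like each receptor were searched across 13 cell groups of both libraries, 26 points in all, among 15606 genes with at least 100 UMIs, with Pearson's r of log2(level + 1). Points of 1 library share that library, and r is a description. Clec4n and Clec4a1 were closest to Itgam, the integrin chain CD11b of myeloid cells (r = 0.987 and 0.985), and next to each other (r = 0.985). Clec4a2 was closest to Ms4a14 and Adgre4 (r = 0.993 and 0.990), and Clec4a3 to Adgre4, Clec4a2 and Ms4a14 (r = 0.936, 0.928 and 0.926). Clec4d was closest to Slc7a15, Tlr5, the flagellin receptor, and Cd14, the co-receptor for lipopolysaccharide (r = 0.975, 0.967 and 0.916). Clec10a was closest to Msr1, a scavenger receptor of macrophages (r = 0.964), Clec12a to Pld4 (r = 0.889) and Clec7a to E2f1 (r = 0.934). Clec9a was closest to Zfp366 (r = 0.837) and Clec1a (r = 0.834). Zfp366 was at 633 in Sham and 668 in TAC dendritic cells, 520 and 475 in endothelial cells, and 8.96 and 3.46 in macrophages.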

How the data were processed

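Hearts had been dissociated into cells, and libraries were made with a 10x Chromium 3-prime kit, of version 3 per the labels. The authors deposited raw UMI counts, made with Cell Ranger (7.1.0 in the matrix headers and the submitters' processing notes), for every gene in every barcode; the paper's text gives other version numbers for the kit and for Cell Ranger. The genome build, and whether intronic reads were counted, are not given in the sources used here; 52081 of 55357 gene identifiers (94.1%) are in GENCODE M21 (GRCm38), which gave positions and lengths. Closely related receptors may have shared reads that the counting dropped or split.

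The Sham matrix held 9935 barcodes and 28146691 UMIs (median 1964) and the TAC matrix 9932 barcodes and 29108986 UMIs (median 2143); 32 barcode sequences occurred in both. Dropped were barcodes under 200 detected genes and 459 Sham (4.62%) and 479 TAC (4.82%) doublets called by Scrublet at 0.8% per 1000 cells. Each library was clustered (Leiden, resolution 1, 2000 variable genes, 30 components, 15 neighbours, seed 1) without the receptors, the list genes, cell-cycle genes and mitochondrial genes. A cluster was named from at least 3 listed markers, each in at least 10% of its cells and at least 1 higher on the log2 scale than in other cells. Myeloid cells of both libraries were then clustered together with genes scaled within each library; this scaling, and the restriction to myeloid cells, were chosen after clusters without them had been seen to split by library or mix cell types.

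UMIs were summed per cell type and given per 1000000, with 95% intervals that were exact Poisson for levels, Clopper-Pearson for shares and conditional binomial for ratios. Intervals and the limit of 3 counts for a count of 0 cover counting error only. No test was possible without replicate libraries. In simulated macrophage counts of 7068 genes, 100% of 200 genes changed 4-fold passed 2-fold. The simulation covered genes with at least 100 UMIs and held counting error only. It does not bear on smaller changes, on genes with fewer UMIs or on differences between libraries. The named genes were the 10 receptors, genes of the 2 lists, and for each receptor with at least 100 UMIs the 3 genes with the highest r. The receptors, lists and markers were chosen with earlier results of these data known. The work was done in Python 3.11.15 with scanpy 1.11.5 and igraph 0.11.9 for clustering and scipy 1.17.1 for intervals. Alternatives changed the filters, doublet removal, resolution, joint clustering, typing by each cell's own markers, the denominator, the myeloid clustering and the thinning depth.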

Additional observations from a re-analysis of the deposited data

How the results depend on the processing

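No paired analysis was possible because Sham and TAC had no replicate libraries to pair. The ratio of TAC to Sham of the summed receptors in macrophages lay between 0.873 and 0.897 under 8 alternatives, that of Clec7a between 0.435 and 0.529, that of Clec10a between 0.686 and 0.695, that of Clec4a1 between 0.741 and 0.765 and that of Clec4d between 1.43 and 1.66. The ratio of Clec9a in endothelial cells lay between 1.90 and 2.36 under the same alternatives, which were added for it after the data were seen. That of Clec4e fell to 0.679 at its lowest, on the other side of 1. The mitochondrial filter, first clustering at resolution 0.5 or 2, joint clustering and the denominator left 1422 Sham and 1341 or 1342 TAC macrophages. These alternatives had little room to move the ratios. Macrophage numbers changed with at least 500 genes (1339 and 1295), without doublet removal (1552 and 1437) and with own-marker typing (739 and 918). Endothelial cell numbers, too, changed mainly under these last alternatives.

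Without doublet removal the summed level in macrophages was 671 in Sham and 602 in TAC, and macrophages held 80.3% of the receptors' UMIs in TAC. With each cell typed by its own markers, which left 739 Sham and 918 TAC macrophages, they held 50.8% in Sham and 61.8% in TAC. In the myeloid clustering, 2 ratios of MHC class II to other macrophages changed direction in TAC, Clec10a at resolution 2 (1.03) and Clec4d at resolution 0.5 (1.03), and with genes scaled over both libraries the TAC to Sham ratio of Clec4n in MHC class II macrophages was 0.574; the cause was not tested. With each library clustered alone, no TAC cluster was named dendritic and the Clec7a ratio of MHC class II to other macrophages was 1.55 in Sham (0.707–3.03). With genes scaled over both libraries, an alternative chosen after seeing the data, 4 of 10 clusters held over 80% of 1 library's cells and the Clec7a ratio in TAC was 1.24 (0.246–3.89). Of 190 levels in MHC class II macrophages and dendritic cells under the alternatives, 167 stayed within the counting interval of the reported value. Shares of cells with a UMI moved with the thinning depth in 52 of 60 values. Values of Clec4e rest on 7 and 15 UMIs, and those of TAC dendritic cells on 6 cells.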
